A study of Mus musculus with 10 samples.

Results

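The genes described here are 9 members of the TGF-beta and activin signalling system, of 57010 genes in the deposited count table. They are the TGF-beta ligands Tgfb1, Tgfb2 and Tgfb3, the activin subunits Inhba and Inhbb, the receptors Tgfbr1, Tgfbr2 and Tgfbr3, and the inhibitory Smad gene Smad7. They were taken by name, as ligands, receptors and a feedback target, and all 9 were matched to 1 Ensembl row each and passed the filter on low counts. RNA was sequenced from untreated whole mammary tumours of PyMT mice, 5 weeks after tumour onset. In this model the MMTV promoter drives polyoma middle T antigen in mammary epithelium, and every tumour of both groups carried it. The groups were 5 libraries of genotype RHBDL4 -/- (knockout), with both copies of the gene of a rhomboid protease of the endoplasmic reticulum disrupted, and 5 of genotype RHBDL4 +/+ (wild-type). The sources used here give neither strain nor age. The labels do not say which tumours came from separate mice, and p-values therefore cover the spread between libraries, which may be partly technical.

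TGF-beta ligands are secreted in a latent form, bound to their own propeptide, and have to be released before they signal. The active dimer binds the type II receptor Tgfbr2, which then phosphorylates the type I receptor Tgfbr1, and this in turn activates Smad transcription factors. Tgfbr3, betaglycan, is a co-receptor that presents the ligand, TGF-beta2 above all, and it also binds inhibin. Activins are dimers of the beta subunits encoded by Inhba and Inhbb and use activin receptors of the same family. Smad7 is switched on by the pathway and blocks the type I receptor. In the mammary gland TGF-beta restrains ductal growth, and in tumours it is known both for growth restraint and for effects on invasion and on stromal cells.

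The sequences just before the start of 3 ligand genes are shown because the levels of these ligands contrast below: Tgfb1 was the most even of the ligands, while Tgfb2 and Inhbb differed severalfold between libraries. Each is the RefSeq window (GRCm38.p6) of 250 bases before the start, 5′ to 3′ in the direction of the gene, and 6 of the 9 genes had an entry in that table. Capitals mark the letters of a Smad box (CAGAC), a GC box (GGGCGG) or a TATA box (TATAAA), read on both strands.
Tgfb1, chr7:25686752-25687001, plus strand: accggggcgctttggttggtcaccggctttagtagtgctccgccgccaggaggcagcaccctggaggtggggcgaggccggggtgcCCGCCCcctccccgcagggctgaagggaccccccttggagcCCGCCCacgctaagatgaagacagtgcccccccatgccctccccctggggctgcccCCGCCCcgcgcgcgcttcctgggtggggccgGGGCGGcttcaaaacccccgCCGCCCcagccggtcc
Tgfb2, chr1:186705990-186706239, minus strand: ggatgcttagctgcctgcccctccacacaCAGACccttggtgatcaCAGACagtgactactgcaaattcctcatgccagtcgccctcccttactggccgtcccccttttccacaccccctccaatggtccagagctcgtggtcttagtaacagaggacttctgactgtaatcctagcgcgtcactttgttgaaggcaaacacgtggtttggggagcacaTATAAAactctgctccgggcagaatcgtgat
Inhbb, chr1:119422249-119422498, minus strand: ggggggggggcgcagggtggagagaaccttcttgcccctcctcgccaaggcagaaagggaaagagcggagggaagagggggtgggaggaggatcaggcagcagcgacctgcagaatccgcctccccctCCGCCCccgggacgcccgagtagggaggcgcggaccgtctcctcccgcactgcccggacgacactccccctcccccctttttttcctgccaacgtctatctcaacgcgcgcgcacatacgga

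The 3 windows differ in composition. That of Tgfb1 had a GC content of 75.2% and 5 GC boxes, a motif found in 32.7% of the 32851 windows of the table. The Tgfb2 window had a GC content of 53.6%, a TATA box starting at position -31 (12.4% of windows) and 2 Smad boxes (42.2% of windows). The Inhbb window had a GC content of 68% and 1 GC box. Neither the Smad palindrome GTCTAGAC (0.167% of windows) nor the AP-1 letters TGAGTCA (4.46%) nor the cyclic AMP element TGACGTCA (1.55%) was found in any of the 3, and no matches overlapped. A match is a description of letters and not a measured binding site.

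Libraries held 25.7 to 43.3 M counts. Rhbdd1, the targeted gene, ran from 13.2 to 22.3 CPM in knockout and from 25.0 to 45.4 CPM in wild-type libraries. CPM are counts per M (mega) counts of a library after TMM scaling. Wild-type replicate 5 stood apart in tissue markers. Its summed level of the 10 luminal epithelial markers was 131 CPM, against 4236 to 7977 CPM elsewhere, and its 10 skeletal muscle markers summed to 150500 CPM, against at most 1696 CPM elsewhere. No marker of either list was at 0 in all libraries. The epithelial markers that the labelled tissue should hold were thus high in 9 libraries and low in this one. Its TMM factor was 0.59, against 1.01 to 1.10 in the others, so scaling raised its CPM. The comparison is therefore given with all 10 libraries and again in a fit on the 9 libraries without wild-type replicate 5. All levels per library are on the scale of the 10-library fit unless another scale is named. Group means and ranges of marker sums given with the 9-library fit are on its own scale.

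None of the 9 genes passed the test for a difference between knockout and wild-type tumours. In edgeR, 0 of the 9 were called at an adjusted p under 0.05, where 0% of 18577 tested genes were called with all 10 libraries and 0.0105% of 19016 in the 9-library fit. At an unadjusted p under 0.05 the members again numbered 0 in both fits, against 7.00% and 11.6% of all tested genes. DESeq2 called 0 members in either set of libraries (0.191% and 1.57% of all genes), and limma-voom with sample quality weights also 0 (0.0915% and 0.752%). The knockout and wild-type ranges overlapped for each of the 9 genes in both fits, where 1.99% and 5.44% of all tested genes did not overlap. The median log2 fold change of the members was -0.11 with all libraries (all tested genes -0.06) and 0.10 without wild-type replicate 5 (all tested genes 0.03). Rhbdd1 itself, whose group ranges did not overlap, was not called by edgeR in either fit. Its log2 fold change was -1.05 (edgeR adjusted p = 0.669) with all libraries and -1.14 (edgeR adjusted p = 0.113) on the 9. DESeq2 (adjusted p = 0.00191 and 5.36e-06) and limma-voom with quality weights (adjusted p = 0.0359 and 0.0253) called it. These counts do not show that the 9 genes are alike in the 2 genotypes, and the intervals below give the differences the data leave possible.

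**Figure D1:**
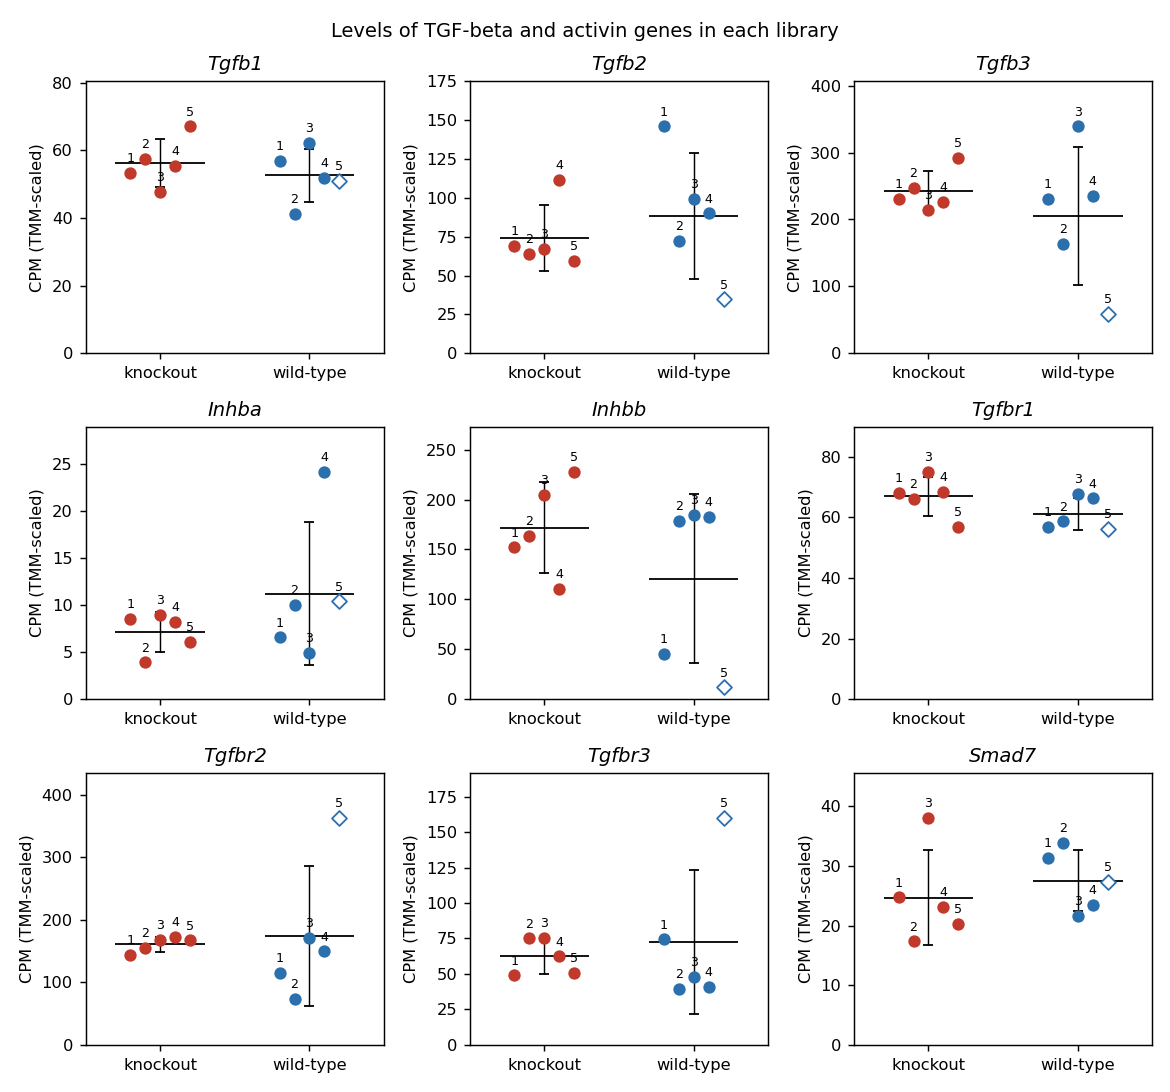
TMM-scaled CPM (vertical axes, from 0) of each of the 9 genes in the 5 knockout and 5 wild-type libraries, with the replicate number at each point. Bars give the mean and SD over 5 libraries, and the open diamond is wild-type replicate 5, which is highest for Tgfbr2 (363 CPM) and Tgfbr3 (160 CPM) and lowest for Tgfb2, Tgfb3, Inhbb and, close to wild-type replicate 1, Tgfbr1.

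Compared per length, in CPM per kilobase of exon, Tgfb3 was the most abundant of the 9 transcripts and Inhba the least. Over the 9 libraries without wild-type replicate 5 the mean level of Tgfb3 was 71.6 ± 14.6 CPM per kilobase (SD, n = 9), and that of Inhbb 37.9 ± 12.8. Tgfbr2 (17.9 ± 4.02), Tgfb2 (15.0 ± 4.91), Tgfb1 (10.9 ± 1.51), Tgfbr1 (9.93 ± 0.94), Tgfbr3 (8.75 ± 2.26) and Smad7 (5.75 ± 1.52) followed in CPM per kilobase. Inhba came last at 1.42 ± 0.94, below the lowest Smad7 library in every one of the 9. Each other pair of neighbours in this order had overlapping ranges over the libraries. Within knockout alone, Tgfb3 (63.2 to 86.3), Inhbb (26.0 to 53.5) and Tgfbr2 (17.5 to 21.1) had ranges that did not meet.

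Of the ligands, Tgfb1 encodes the form best known from immune and stromal regulation, and it varied least. Tgfb1 stood at 53.3, 57.4, 47.6, 55.3 and 67.1 CPM in knockout replicates 1 to 5 and at 56.9, 41.2, 62.2, 51.7 and 50.9 CPM in wild-type replicates 1 to 5. The 2 sets of values interleave, and wild-type replicate 5 lies inside them. Knockout against wild type gave a log2 fold change of 0.09 ± 0.14 (SE, 95% interval -0.22 to 0.41, edgeR adjusted p = 0.841) with all libraries and 0.10 ± 0.14 (-0.22 to 0.42, adjusted p = 0.812) in the 9-library fit.

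Tgfb2, a ligand that needs betaglycan for strong binding, had the smallest p of the 9 genes in the 9-library fit. Tgfb2 stood at 69.3, 64.1, 67.2, 112 and 59.3 CPM in knockout replicates 1 to 5 and at 146, 72.3, 99.5, 90.1 and 34.6 CPM in the wild-type ones. Knockout replicates 1, 2, 3 and 5 lay below wild-type replicates 1 to 4, knockout replicate 4 lay among them, and wild-type replicate 5 had the lowest level of all. With all libraries the log2 fold change was -0.25 ± 0.34 (SE, 95% interval -1.0 to 0.50, edgeR adjusted p = 0.821). On the 9 libraries it was -0.44 ± 0.24 (95% interval -0.97 to 0.09, edgeR adjusted p = 0.509), with means of 79.2 ± 22.8 CPM in the knockout (SD, n = 5) and 107 ± 32.9 CPM in the wild-type (SD, n = 4). Leaving out knockout replicate 4 as well gave -0.63 (edgeR adjusted p = 0.362), and leaving out wild-type replicate 1 in its place gave -0.22 (edgeR adjusted p = 0.729). With wild-type replicate 5 kept and wild-type replicate 1 left out, the value was 0.0037.

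Tgfb3, the ligand best known from palate and gland development and from involution of the mammary gland, had the highest mean level of the 3 TGF-beta ligands. Tgfb3 stood at 231, 248, 214, 226 and 292 CPM in knockout replicates 1 to 5 and at 230, 164, 339, 235 and 58.5 CPM in the wild-type ones. Wild-type libraries hold both the highest and the lowest value, and the knockout libraries lie between them. Its log2 fold change was 0.24 ± 0.37 (SE, 95% interval -0.58 to 1.05, edgeR adjusted p = 0.846) with wild-type replicate 5 and 0.02 ± 0.19 (-0.42 to 0.45, adjusted p = 0.98) without it.

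The mix of the 3 TGF-beta ligand transcripts within a library does not depend on how libraries are scaled. Per kilobase, Tgfb1 made up 11.7, 11.9, 11.2, 11.3 and 12.1% of the 3 in knockout replicates 1 to 5 and 10.8, 11.9, 9.51, 10.8 and 30.3% in the wild-type ones. Wild-type replicate 5 was far above the rest, and without it Tgfb1 took 11.6 ± 0.38% in the knockout (SD, n = 5) and 10.7 ± 0.96% in the wild-type (SD, n = 4). That difference of 0.903 percentage points did not pass a 2-sided exact permutation test (p = 0.0794, smallest possible 0.00794), nor did the difference of -3.0 points over all libraries (exact permutation p = 0.96). The share of Tgfb3 was 74.8 ± 3.62% in knockout and 71.3 ± 5.11% in wild-type replicates 1 to 4 (exact permutation p = 0.262). For Tgfb2 it was 13.5 ± 3.92% and 17.9 ± 4.58% (exact permutation p = 0.167). These 3 shares sum to a whole, so the tests on them are not independent. Adjusted over the 6 tests none passed either, since none passed before adjustment.

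**Figure D2:**
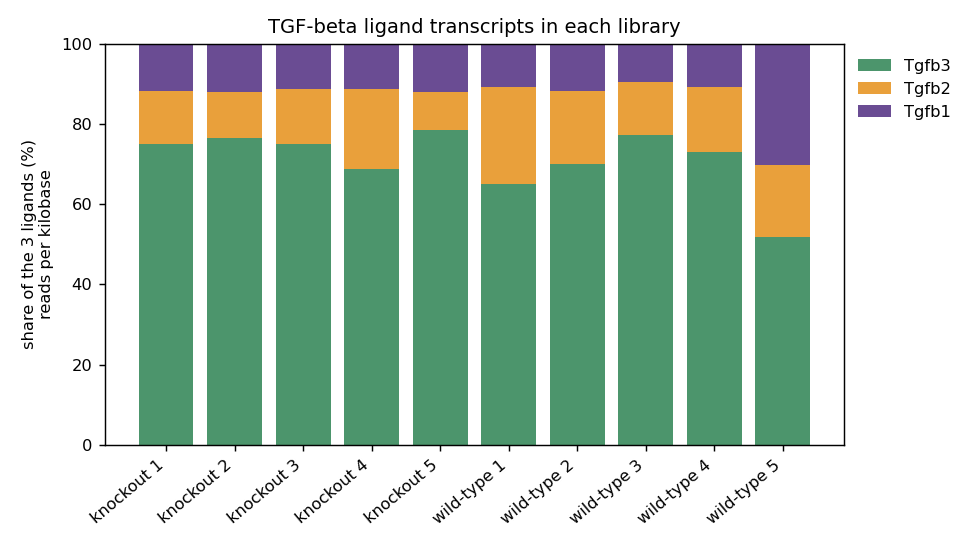
Share of Tgfb1, Tgfb2 and Tgfb3 in their summed reads per kilobase (vertical axis, percent) in each library, as stacked bars. Tgfb3 makes up 65.1 to 78.6% in all libraries but wild-type replicate 5, where it is 51.8% and Tgfb1 30.3%.

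The activin subunit genes were the most uneven members. Inhbb, which encodes the subunit of activin B, stood at 152, 164, 205, 111 and 227 CPM in knockout replicates 1 to 5 and at 45.7, 178, 185, 183 and 11.7 CPM in the wild-type ones. Wild-type replicates 2, 3 and 4 lay inside the knockout range, and wild-type replicates 1 and 5 lay below it. Wild-type replicates 1 and 2 differ this much although their library names begin with the same number, 968. The log2 fold change of Inhbb was 0.51 ± 0.61 (SE, 95% interval -0.86 to 1.87, edgeR adjusted p = 0.805) with all libraries. It was 0.23 ± 0.38 (95% interval -0.62 to 1.08, edgeR adjusted p = 0.841) in the 9-library fit, and -0.07 there when wild-type replicate 1 was also left out.

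Inhba, the subunit gene of activin A, was low in all tumours. It stood at 8.50, 3.91, 9.00, 8.26 and 6.11 CPM in knockout replicates 1 to 5 and at 6.57, 10.0, 4.94, 24.2 and 10.4 CPM in wild-type replicates 1 to 5. Wild-type replicate 4 alone lies far above the rest, and the other wild-type libraries spread over the knockout range and just above it. For Inhba the log2 fold change was -0.65 ± 0.43 (SE, 95% interval -1.61 to 0.31, edgeR adjusted p = 0.686) over 10 libraries and -0.66 ± 0.45 (-1.68 to 0.36, adjusted p = 0.596) over 9. It was 0.01 over those 9 when wild-type replicate 4 was also left out, so the size of this difference rests on that library.

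Among the receptors, Tgfbr1, the type I receptor kinase, was the most even. Tgfbr1 stood at 68.2, 66.1, 74.9, 68.5 and 56.9 CPM in knockout replicates 1 to 5 and at 56.8, 58.7, 67.6, 66.3 and 56.3 CPM in the wild-type ones. Knockout replicate 5 lies with wild-type replicates 1, 2 and 5 at the low end, and the other knockout libraries lie near or above wild-type replicates 3 and 4. Its log2 fold change was 0.13 ± 0.11 (SE, 95% interval -0.12 to 0.38, edgeR adjusted p = 0.74) and, without wild-type replicate 5, 0.12 ± 0.10 (-0.11 to 0.35, adjusted p = 0.677).

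Tgfbr2, the type II receptor that binds the ligand first, had a difference whose sign depended on 1 library. Tgfbr2 stood at 143, 155, 168, 172 and 167 CPM in knockout replicates 1 to 5 and at 115, 73.2, 171, 150 and 363 CPM in the wild-type ones. The knockout libraries are close to each other, and the wild-type libraries spread widely to both sides of them. The log2 fold change was -0.11 ± 0.36 (SE, 95% interval -0.91 to 0.69, edgeR adjusted p = 0.93) with all libraries. On the 9 libraries it was 0.36 ± 0.22 (95% interval -0.13 to 0.84, edgeR adjusted p = 0.55), from means of 172 ± 13 CPM in the knockout (SD, n = 5) and 134 ± 46.1 CPM in the wild-type (SD, n = 4).

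Tgfbr3, betaglycan, had the same turn of sign. Tgfbr3 stood at 48.9, 75.0, 75.6, 62.3 and 50.7 CPM in knockout replicates 1 to 5 and at 74.3, 39.4, 47.9, 41.1 and 160 CPM in the wild-type ones. Wild-type replicates 2, 3 and 4 lie below every knockout library, while wild-type replicate 1 matches the higher knockout libraries and wild-type replicate 5 exceeds them all. On the log2 scale the fold change was -0.21 ± 0.39 (SE, 95% interval -1.07 to 0.65, edgeR adjusted p = 0.87) with all libraries and 0.32 ± 0.22 (-0.17 to 0.81, adjusted p = 0.589) on the 9. It was 0.56 (edgeR adjusted p = 0.351) on the 9 when wild-type replicate 1 was also left out.

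Smad7, the feedback inhibitor, stood at 24.7, 17.3, 38.0, 23.2 and 20.2 CPM in knockout replicates 1 to 5 and at 31.3, 33.8, 21.7, 23.5 and 27.3 CPM in wild-type replicates 1 to 5. The knockout libraries hold the highest and the lowest values, and the wild-type libraries lie between. Its log2 fold change was -0.16 ± 0.23 (SE, 95% interval -0.66 to 0.35, edgeR adjusted p = 0.838) over all libraries and -0.14 ± 0.23 (-0.66 to 0.38, adjusted p = 0.841) on the 9.

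**Figure D3:**
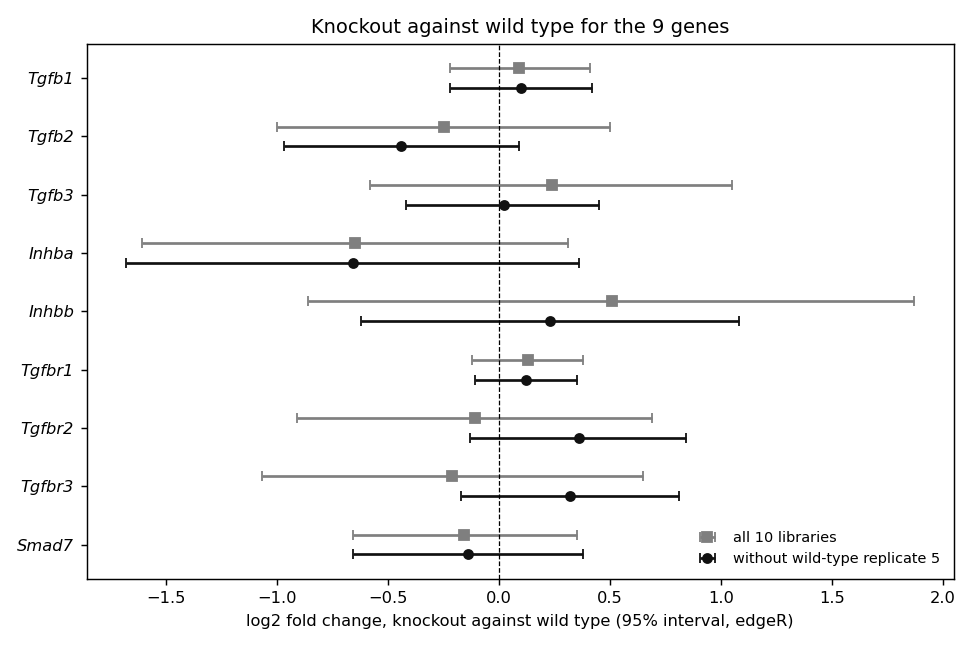
Log2 fold change of knockout against wild type for the 9 genes (horizontal axis), with 95% intervals, from all 10 libraries (grey squares) and without wild-type replicate 5 (black circles). Every interval includes 0, and the points of Tgfbr2 and Tgfbr3 lie on opposite sides of 0 in the 2 fits.

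In wild-type replicate 5 some members, Tgfb2, Tgfb3, Inhbb, Tgfbr2 and Tgfbr3, lay outside the range of the other libraries together with the tissue markers, and the part of the markers in these differences was not tested. In TMM-scaled CPM its Tgfb1, Inhba and Smad7 lay within that range, and its Tgfbr1 lay just below it. For Tgfb1, Smad7 and Tgfbr1 this position depends on the scaling. Unscaled, it had the lowest Tgfb1 (29.6 CPM), Smad7 (15.9 CPM) and Tgfbr1 (32.8 CPM) of all libraries, and only its Inhba (6.06 CPM) stayed within the range. In bulk tissue, fewer cells of a type and less RNA per cell cannot be told apart. That library had the highest Tgfbr2 and Tgfbr3 also without TMM scaling for its own value (211 and 93.1 unscaled CPM), and the lowest Tgfb3 (34.1) and Inhbb (6.80). Beside its low luminal level, its summed fibroblast markers stood at 12530 CPM (157 to 6986 CPM elsewhere), endothelial markers at 967 CPM (68.1 to 290 CPM) and adipocyte markers at 14560 CPM (27.3 to 2002 CPM). Pericyte markers stood at 1204 CPM (140 to 283 CPM elsewhere) and macrophage markers at 1074 CPM (201 to 474 CPM elsewhere).

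Stromal markers also differed among the other wild-type tumours. Wild-type replicate 1, with the lowest Inhbb of the 9 libraries and the highest Tgfb2, had the lowest summed fibroblast (157 CPM) and endothelial (68.1 CPM) levels and the highest neutrophil marker level (1264 CPM, against 20 to 313 CPM in the other 8). Wild-type replicate 2, with the lowest Tgfbr2, Tgfb1 and Tgfb3 of the 9, had the next lowest fibroblast (1439 CPM) and endothelial (136 CPM) levels and the highest basal or myoepithelial level (749 CPM). In the 9-library fit 9 of 10 fibroblast markers had positive log2 fold changes (median 0.41), as did 9 of 9 endothelial markers (median 0.35), and none of these 19 was called. On the scale of that fit, fibroblast sums were 3594 to 7458 CPM in knockout and 164 to 6090 CPM in wild-type libraries. Endothelial sums were 165 to 311 and 71.4 to 234 CPM. Larger values were found for other tissues, with sums given on the same scale. All 7 adipocyte markers had positive log2 fold changes on the 9 libraries (median 3.11), with sums of 63.0 to 2143 CPM in knockout and 28.6 to 367 CPM in wild-type, as did all 10 skeletal muscle markers (median 3.39, sums of 4.53 to 1816 and 4.49 to 102 CPM). Of the T and NK cell markers 8 of 9 had positive values (median 0.74), of the neutrophil markers 4 of 5 (median 0.55) and of the pericyte markers 4 of 6 (median 0.11). Basal or myoepithelial markers had negative values for 5 of 7 (median -0.78) and macrophage markers for 6 of 8 (median -0.06). Luminal markers divided evenly, 5 with positive and 5 with negative values (median 0.03). No marker of these lists was called, and their part in the members' values was not tested.

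Levels of some members followed each other across the 9 libraries, though no pair of the 36 passed adjustment. Tgfb1 and Tgfb3 were high and low in the same libraries (Pearson's r = 0.91, exact permutation p = 0.00203, adjusted over the 36 pairs 0.0729). Their Spearman's rho was 0.82 (exact permutation p = 0.0108, adjusted 0.0969), and r was 0.79 without the 2 libraries farthest from the median of Tgfb1. Smad7 ran the other way from Tgfb3 (r = -0.66, exact permutation p = 0.0485, adjusted 0.291, and rho = -0.87, exact permutation p = 0.00451, adjusted 0.0812). Without the 2 libraries farthest from the median of Tgfb3 that r was -0.70. Inhba and Tgfb1 also ranked in opposite order (rho = -0.88, exact permutation p = 0.00308, adjusted 0.0812), with r = -0.50 (exact permutation p = 0.17, adjusted 0.648) and -0.63 without the 2 libraries farthest from the median of Tgfb1. Tgfb2 and Inhbb also ran opposite ways (r = -0.82, exact permutation p = 0.00687, adjusted 0.124, and rho = -0.62, exact permutation p = 0.0857, adjusted 0.386). That relation rests on single libraries, since r was -0.19 without the 2 libraries farthest from the median of Tgfb2. Some of these libraries share a leading number, so the 9 may not be independent, and they share 1 scaling.

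**Figure D4:**
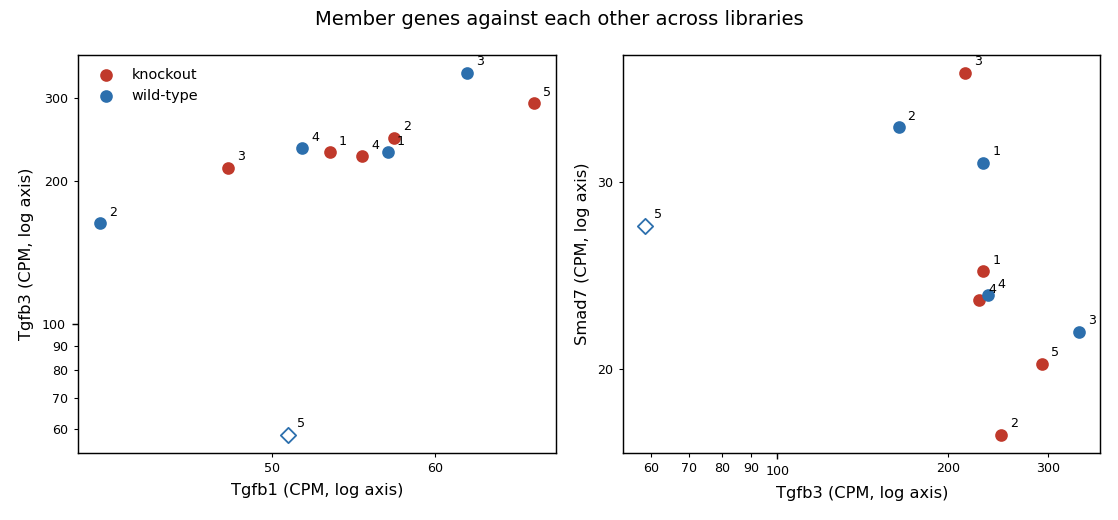
Tgfb3 against Tgfb1 and Smad7 against Tgfb3, in TMM-scaled CPM on log axes, 1 point per library with its replicate number; the open diamond is wild-type replicate 5 and was left out of the correlations. Tgfb1 and Tgfb3 rank alike over the other 9 libraries (rho 0.82), while Smad7 and Tgfb3 rank in opposite order (rho -0.87).

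Other genes were also ranked by their likeness to each member, as Pearson's r of log2 CPM over the same 9 libraries, among 13321 genes. The highest values are large by selection and are given as a description. Nearest to Tgfb1 were Cmtm8 (r = 0.94, rho = 0.83), Hagh (0.93, rho = 0.88) and Bckdha (0.91, rho = 0.87). Cmtm8 was also nearest to Tgfb3 (r = 0.94, rho = 0.90), followed by Evi2a (0.92) and Pla2g4a (0.89). Tgfb2 was most like Tnfrsf11a, the receptor RANK (r = 0.96, rho = 0.90), Psma4 (0.95) and Bicdl2 (0.95). Inhbb was most like Mcts2 (r = 0.98, rho = 0.88), Adamts7 (0.96) and Acot8 (0.96), and Inhba like Iws1, Comtd1 and Pcna-ps2 (r = 0.85 each). For the receptors these were Zfp617 (r = 0.98, rho = 1.00), Stk17b (0.96) and Spry1 (0.92) with Tgfbr1. With Tgfbr2 they were Heg1 (r = 0.97, rho = 0.80), Arhgef18 (0.91) and Bet1l (0.91), and with Tgfbr3 Ip6k1 (r = 0.93, rho = 0.77), Os9 (0.91) and Fam102b (0.91). Smad7 was most like Hspa9 (r = 0.96, rho = 0.93), Setd5 (0.96) and Parn (0.94).

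The rest of the pathway was followed in 8 lists of 111 genes, of which 100 were tested in each fit. None of the 100 was called by edgeR in either fit. Unadjusted p under 0.05 was reached by 2 with higher and 7 with lower values in knockout over all libraries, where 2.56% and 4.44% of all tested genes did so. In the 9-library fit these numbered 6 and 4, against 5.74% and 5.85%. Of the 100, 49 had positive log2 fold changes with all libraries and 72 on the 9, where 43.8% and 53.2% of all genes did. Their median was -0.02 and then 0.15, beside -0.06 and 0.03 over all tested genes.

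Genes that hold the latent ligand or release it divided in direction, 11 of 18 with positive values in the 9-library fit (median 0.07). With quality weights their median on the 9 was -0.04. Thbs1, thrombospondin 1, an activator of latent TGF-beta, had a mean of 364 ± 132 CPM in the knockout (SD, n = 5) and of 574 ± 228 CPM in the 4 wild-type libraries of that fit, giving -0.66 ± 0.31 (edgeR adjusted p = 0.463). Mmp14, a membrane protease, stood at 164 ± 11.5 and 114 ± 47.6 CPM (0.52 ± 0.26), and Plau, urokinase, at 24.8 ± 7.17 and 34.9 ± 11.8 CPM (-0.50 ± 0.27). Neither was called (edgeR adjusted p = 0.472 and 0.511).

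Of the other receptors and co-receptors, 9 of 13 had positive values on the 9 libraries (median 0.25), against 5 of 13 with all libraries (median -0.09). With quality weights the median on the 9 was -0.04. Acvrl1, the endothelial type I receptor ALK1, stood at 48.3, 38.5, 46.7, 35.9 and 51.4 CPM in knockout replicates 1 to 5 and at 25.6, 27.4, 33.6, 30.8 and 65.7 CPM in the wild-type ones. All knockout libraries lie above wild-type replicates 1 to 4 and below wild-type replicate 5. Of the 100 pathway genes tested, 1, Acvrl1, was higher in knockout without overlap on the 9 libraries, and 0 were lower. Among all tested genes 2.00% were higher without overlap, and 5.44% did not overlap in either direction. Acvrl1 had a log2 fold change of 0.61 ± 0.14 on the 9 libraries (edgeR adjusted p = 0.279) and 0.27 ± 0.26 with all libraries (adjusted p = 0.766). DESeq2 called it on the 9 libraries (0.60, adjusted p = 0.0262), where it called 1.57% of all genes. Quality weights did not call it there (limma-voom adjusted p = 0.0596). Neither did sums of libraries with the same leading number (edgeR adjusted p = 0.932) or that number as a random block (limma-voom adjusted p = 0.746). On the 9 libraries 9 of 9 endothelial markers also had positive values, as given above. Within the knockout, replicates 1 and 5 had the highest Acvrl1 and the lowest endothelial sums (156 and 160 CPM). Wild-type replicate 5 was highest in both. The part of the endothelial markers was not tested. Bmpr1b, a BMP receptor, and Amhr2, the anti-Muellerian hormone receptor, were low, at 1.66 ± 0.80 and 0.353 ± 0.160 CPM in knockout and 0.613 ± 0.212 and 0.659 ± 0.302 CPM in wild-type libraries, with log2 fold changes of 1.43 ± 0.44 (edgeR adjusted p = 0.317) and -0.90 ± 0.44 (adjusted p = 0.471) on the 9 libraries.

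Other subunits and antagonists held 11 of 12 genes with positive values on the 9 libraries (median 0.41), against 5 of 12 with all libraries (median -0.19). The exception on the 9 was Inha, the inhibin alpha subunit, which pairs with the beta subunits to form inhibin. Inha stood at 0.96, 0.59, 1.63, 0.54 and 1.54 CPM in knockout replicates 1 to 5 and at 7.60, 1.41, 1.07, 1.86 and 7.34 CPM in the wild-type ones. Only wild-type replicates 1 and 5 stand clear of the knockout libraries by a wide margin. Its log2 fold change was -1.48 ± 0.62 on the 9 libraries (edgeR adjusted p = 0.412) and -0.44 when wild-type replicate 1 was also left out. Chrd, chordin, a BMP antagonist, gave 0.98 ± 0.39 on the 9 libraries (edgeR adjusted p = 0.387). Dcn of this list is also among the fibroblast markers given above. With all libraries the median of the list turned positive with quality weights (0.35), DESeq2 (0.02) and no filter (0.07). It was also positive with at least 10 counts in every library (0.27) and with the leading number as a random block (0.41).

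Smads and their cofactors gave small differences, with a median of 0.05 on the 9 libraries and values from -0.26 to 0.33 for the 10 genes tested. Smad1 (73.5 ± 23.9 against 58.5 ± 8.91 CPM), Smad5 (83.9 ± 4.34 against 77.5 ± 8.43 CPM) and Crebbp, a histone acetyltransferase (85.2 ± 8.67 against 78.7 ± 4.83 CPM), had the smallest p and were not called (edgeR adjusted p = 0.58, 0.653 and 0.665).

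The list of regulators and feedback genes, most of them negative regulators, had 10 of 13 positive values on the 9 libraries (median 0.11). Smad6, the inhibitory Smad of the BMP branch, stood at 6.74, 8.44, 7.37, 7.71 and 6.92 CPM in knockout replicates 1 to 5 and at 7.60, 14.1, 12.3, 10.5 and 10.9 CPM in the wild-type ones. Wild-type replicate 1 alone lies within the knockout range. Its log2 fold change was -0.56 ± 0.19 on the 9 libraries (edgeR adjusted p = 0.341) and -0.58 ± 0.20 on all (adjusted p = 0.669). Pmepa1, a TGF-beta-induced gene that restrains Smad signalling, stood at 617, 696, 806, 662 and 579 CPM in knockout and at 355, 463, 614, 560 and 149 CPM in wild-type replicates 1 to 5. Wild-type replicate 3 overlaps the lower knockout libraries, and the other wild-type libraries lie below all of them. The log2 fold change of Pmepa1 was 0.45 ± 0.17 on the 9 libraries (edgeR adjusted p = 0.373). Usp15, a deubiquitinase of the receptor complex, is counted in this list but is not a negative regulator. It gave -0.16 ± 0.09 (edgeR adjusted p = 0.524).

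Genes often cited as TGF-beta targets had 16 of 21 positive values on the 9 libraries (median 0.52) and 11 of 21 with all libraries (median 0.02). The list holds collagens and other fibroblast genes, and Col1a1, Col1a2 and Col3a1 are also among the fibroblast markers given above. Both lists had mostly positive values on the 9 libraries. With all libraries 2 of 10 fibroblast markers had positive values (median -0.83). The part of the fibroblast markers was not tested. Sphk1, sphingosine kinase 1, stood at 18.8, 9.52, 72.1, 26.4 and 20.6 CPM in knockout and at 10.9, 7.36, 7.23, 13.2 and 2.20 CPM in wild-type replicates 1 to 5. Knockout replicate 3 is the highest, and knockout replicate 2 lies among the wild-type libraries. For Sphk1 the 9 libraries gave 1.62 ± 0.53 (edgeR adjusted p = 0.329), and 0.98 when knockout replicate 3 was also left out. Pthlh, parathyroid hormone-related protein, gave -1.95 ± 0.70 (edgeR adjusted p = 0.355), with wild-type replicate 1 at 7.06 CPM and knockout libraries at 0.216 to 0.907 CPM. Without wild-type replicate 1 the Pthlh value was -0.68.

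The Id genes, direct targets of BMP signalling, gave 3 of 4 negative values on the 9 libraries (median -0.32) and with all libraries (median -0.83). Id3 had means of 9.95 ± 4.66 CPM in the knockout (SD, n = 5) and 13.5 ± 5.17 CPM in the wild-type (SD, n = 4), Id2 at 391.5 ± 91.1 and 451 ± 64.0 CPM, and Id4 at 2.74 ± 0.66 and 4.49 ± 4.51 CPM. None was called (edgeR adjusted p = 0.664, 0.677 and 0.688). The list of BMP and GDF ligands also holds Bmp1, which encodes a protease and not a ligand. Of its tested genes, 7 of 9 had positive values on the 9 libraries (median 0.40), against 2 of 9 with all libraries (median -0.70). On the 9, Bmp2 gave -1.42 ± 0.62 (edgeR adjusted p = 0.426), Bmp6 0.61 ± 0.27 (adjusted p = 0.427) and Gdf15 0.67 ± 0.34 (adjusted p = 0.484). The Bmp2 value rests on wild-type replicate 2, at 11.1 CPM against 0.974 to 2.21 CPM in the other libraries of the 9, and was -0.15 without it. With all libraries Bmp6 gave -2.28, the opposite sign, with wild-type replicate 5 at 29.2 CPM and the others at 0.751 to 1.71 CPM.

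**Figure D5:**
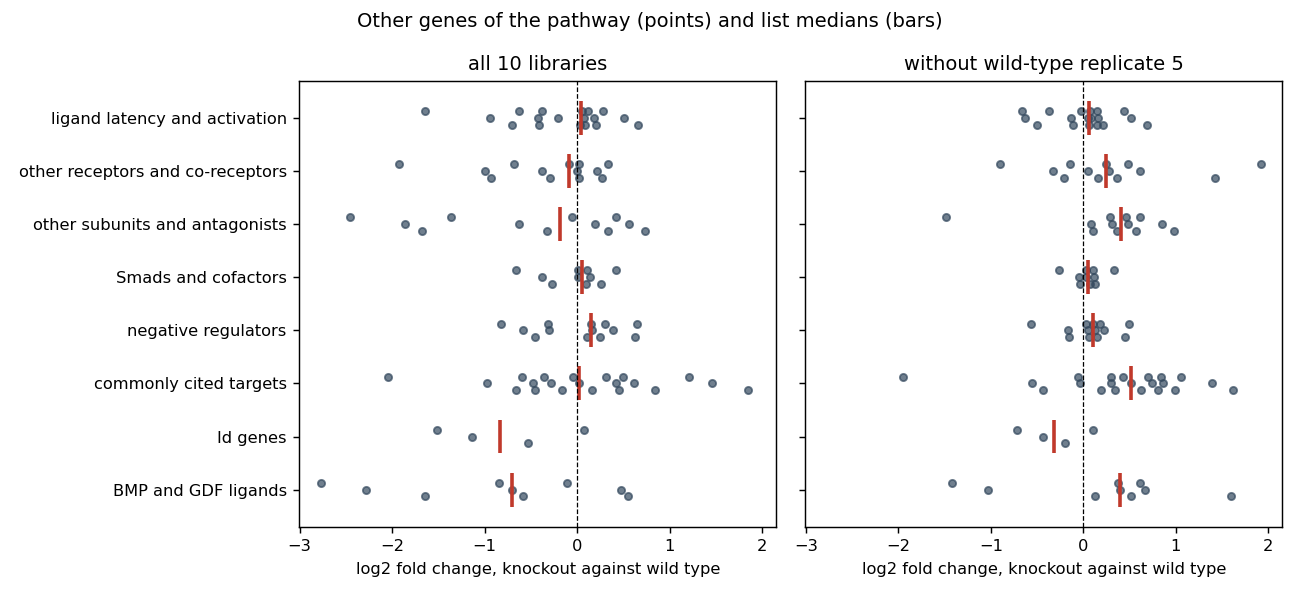
Log2 fold change of knockout against wild type (horizontal axis) for each tested gene of the 8 pathway lists (points) and the list medians (vertical bars), with all 10 libraries on the left and without wild-type replicate 5 on the right. The median of the commonly cited targets is 0.02 on the left and 0.52 on the right, and no gene was called by edgeR in either fit.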

How the data were processed

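The authors deposited 1 table of raw read counts per Ensembl gene, 1 column per library. FastQC, STAR, featureCounts, DESeq2 and the mouse build GRCm39 are named in the submitters' processing notes; versions, annotation release and strand setting are not stated there. Without the strand setting, reads of Tgfb2 and Tgfb3 cannot be told from antisense genes that overlap their exons (up to 80 and 257 bases), and Tgfbr3 shares 297 bases with a gene on its own strand in GENCODE M21.

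Symbols matched 52029 of 57010 rows, with 99.66% of counts, and 0 columns lacked a sample. Libraries of a group were compared in pairs, and none was a repeat of another (lowest chi-square divided by its degrees of freedom 20.8). Every library has its own batch label, so batch and group cannot be told apart if these mark batches. The test was the quasi-likelihood test of edgeR 4.0.16 in R 4.3.3 (TMM, filterByExpr, robust dispersions), adjusted by Benjamini-Hochberg over all tested genes at 0.05, run on all 10 libraries and again on 9. The SE is the log2 fold change over the square root of F. Exon lengths for levels per kilobase came from GENCODE M21 (GRCm38), not the build of the counts. Correlations used log2(CPM + 0.5) for pairs of members and a prior count of 2 for likeness.

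The members and lists were chosen with earlier results of these data known. Named were the 9 members, Rhbdd1, of each pathway list the called genes or the 3 with the smallest p in the 9-library fit, and the 3 genes most like each member with a mean of at least 1 CPM. Some genes this rule names are not reported here. As alternatives, scaling by RLE, DESeq2 1.42.0, voom of limma 3.58.1 with quality weights, no filter, at least 10 counts in every library, sums or a random block by leading number of the library name, and leaving out each library were tried. The alternatives for the pathway lists were added after the data were seen. The fits were tested on simulated data. Markers of B cells were too low to test (0 of 4 tested).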

Additional observations from a re-analysis of the deposited data

Results flagged for a closer look

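In 39 checks of single groups for a library far from the rest, 5 were positive. The nominal rate is about 1 in 20 for independent checks of normally spread values. These checks share libraries and are not independent, so their number is given as a description. Tgfb2 in knockout replicate 4 stood at 112 CPM, with the next knockout library at 69.3 CPM. Inhba in wild-type replicate 4 stood at 24.2 CPM, with the next wild-type library at 10.4 CPM. Inhbb in wild-type replicate 1 stood at 47.9 CPM on the scale of the 9-library fit, with the next of wild-type replicates 1 to 4 at 186 CPM. Tgfbr3 in wild-type replicate 5 stood at 160 CPM, with the next wild-type library at 74.3 CPM. The Tgfb1 share of the 3 TGF-beta ligand transcripts was 30.3% in wild-type replicate 5, with the next wild-type library at 11.9%.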

How the results depend on the processing

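No alternative called a member, and 1 pathway gene was called, Acvrl1 in DESeq2 on the 9 libraries, beside 1.57% of all genes. At an unadjusted p under 0.05 quality weights gave 1 member in either set, Tgfb2, beside 18.8% and 18.5% of all genes. Its value was -0.46 in both (limma-voom adjusted p = 0.167 and 0.164). On the 9, sums also gave 1 (Tgfb2), beside 4.95%. So did leaving out knockout replicate 4 (Tgfb2) or wild-type replicate 1 (Tgfbr3), 2 (Tgfb2) or 3 (Tgfbr2), beside 9.37 to 10.9%. Over all genes, DESeq2 called 38 with all libraries and 320 on the 9, limma-voom with quality weights 17 and 143, and the sums and the block by leading number 0 and 0. With single libraries left out, edgeR called 0 to 2 genes from all libraries and 0 to 1 from the 9, where it called 2 with the 9 complete. Among the genes reported, signs turned as follows, none of them called. With all libraries, quality weights turned Tgfb3 (-0.05), Tgfbr1 (-0.01), Tgfbr2 (0.12), Tgfbr3 (0.33), Id2 (-0.18) and Bmp6 (0.67), sums turned Bmpr1b (-0.19), and the block Thbs1 (0.36). On the 9, Tgfb3 turned with quality weights (-0.05) and without a filter (-0.0041). Leaving out wild-type replicate 5 from all libraries turned Tgfbr2 (range over single libraries left out -0.30 to 0.36), Tgfbr3 (-0.36 to 0.32), Id2 (-0.20 to 0.24), Bmp6 (-2.56 to 0.61) and the Tgfb1 share (-4.28 to 0.903 points). Leaving out wild-type replicate 1 turned Tgfb2 (-0.45 to 0.0037) and Bmpr1b (-0.03 to 1.43), and leaving out knockout replicate 1 also turned Id2. On the 9, single libraries left out turned Tgfb3 (-0.14 to 0.23; knockout replicate 5, wild-type replicates 1 and 2), Inhbb (-0.07 to 0.36; wild-type replicate 1), Tgfb1 (-0.01 to 0.19) and Id4 (-1.09 to 0.23; both wild-type replicate 2), and Inhba (-0.91 to 0.01; wild-type replicate 4). The Tgfb1 share on the 9 ranged from 0.495 to 1.28 points and passed only without wild-type replicate 2 (1.28, exact permutation p = 0.0179). The causes were not tested. The replicate numbers used here follow the order of the samples in each group and are not in the labels. No paired analysis was possible, because the labels pair no knockout with a wild-type library and the groups share no leading number. The median of the Id genes on the 9 was 0.05 without wild-type replicate 2. Amhr2 (6 to 44 counts a library) and Gdf15 (10 to 31) rest on few counts.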
